A study of Rattus norvegicus with 30 samples.

Results

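*Atf4* and 9 genes that act with it or below it in the integrated stress response were followed in rat hippocampal neurons exposed to cannabidiol (CBD), monomethyl fumarate (MMF) or dimethyl fumarate (DMF). The 10 genes were *Atf4*, *Atf5*, *Cebpg*, *Ddit3*, *Trib3*, *Chac1*, *Ppp1r15a*, *Sesn2*, *Ddit4* and *Ddit4l*, taken by symbol and chosen on measured values, the normalised counts of each drug and its vehicle. Of 21993 genes in the tables, 9 of these 10 had a row. *Ppp1r15a* was not analysed here. Of the 9, 8 passed the filter on low counts. *Atf5* had 1 to 19 reads per library and did not. Because drug against vehicle chose the genes, those differences are given as a description. Tests are given for the other contrasts, whose libraries also entered that choice, so they are no independent support.

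The integrated stress response starts when a kinase that senses misfolded protein, amino acid shortage, heme shortage or viral RNA phosphorylates the initiation factor eIF2. General translation then slows, while the mRNA of the transcription factor ATF4 is translated more, so that ATF4 activity can rise with little change in *Atf4* mRNA. ATF4 and its partners switch on genes of amino acid supply and a set of effectors that adjust growth and, under lasting stress, favour cell death. Several of these effectors restrain mTORC1, the kinase complex that couples nutrients to growth.

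The neurons came from wild-type Wistar rat embryos at embryonic day 18 and were grown for 7 days before treatment. DMF and MMF were given at 30 µM with DMSO as vehicle, and CBD at 6 µM with ethanol (EtOH) as vehicle, each vehicle at 0.2%. Poly(A) RNA was sequenced after 4 h and 24 h, which gave 10 groups (DMSO, DMF, MMF, EtOH and CBD at each time) with 3 libraries each, from 3 experiments that the labels call independent. DMF is the dimethyl ester of fumaric acid and MMF its monomethyl ester, while CBD is a cannabinoid of Cannabis plants.

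The 30 libraries held 15108132 to 25367834 reads on genes, with a median of 20088658. Markers of neurons summed to 3230 to 4631 CPM (read counts scaled to a common library size) over the libraries, those of astrocytes to 1739 to 4690 CPM and those of the oligodendrocyte lineage to 463 to 1093 CPM. Microglial markers summed to 1 to 11.1 CPM, and *Cx3cr1*, *P2ry12* and *Itgam* never passed 1 CPM. Fibroblast markers summed to 23.9 to 144 CPM and endothelial ones to 1.22 to 2.70 CPM, with *Flt1* never above 1 CPM. The libraries thus held RNA of glia as well as of neurons, and in bulk RNA fewer cells of a type cannot be told apart from less RNA per cell. The libraries of CBD replicate 1 stood apart at both times, so the log2FC of CBD against EtOH, and that of *Ddit4l* between the times, are also given without them.

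**Figure D1:**
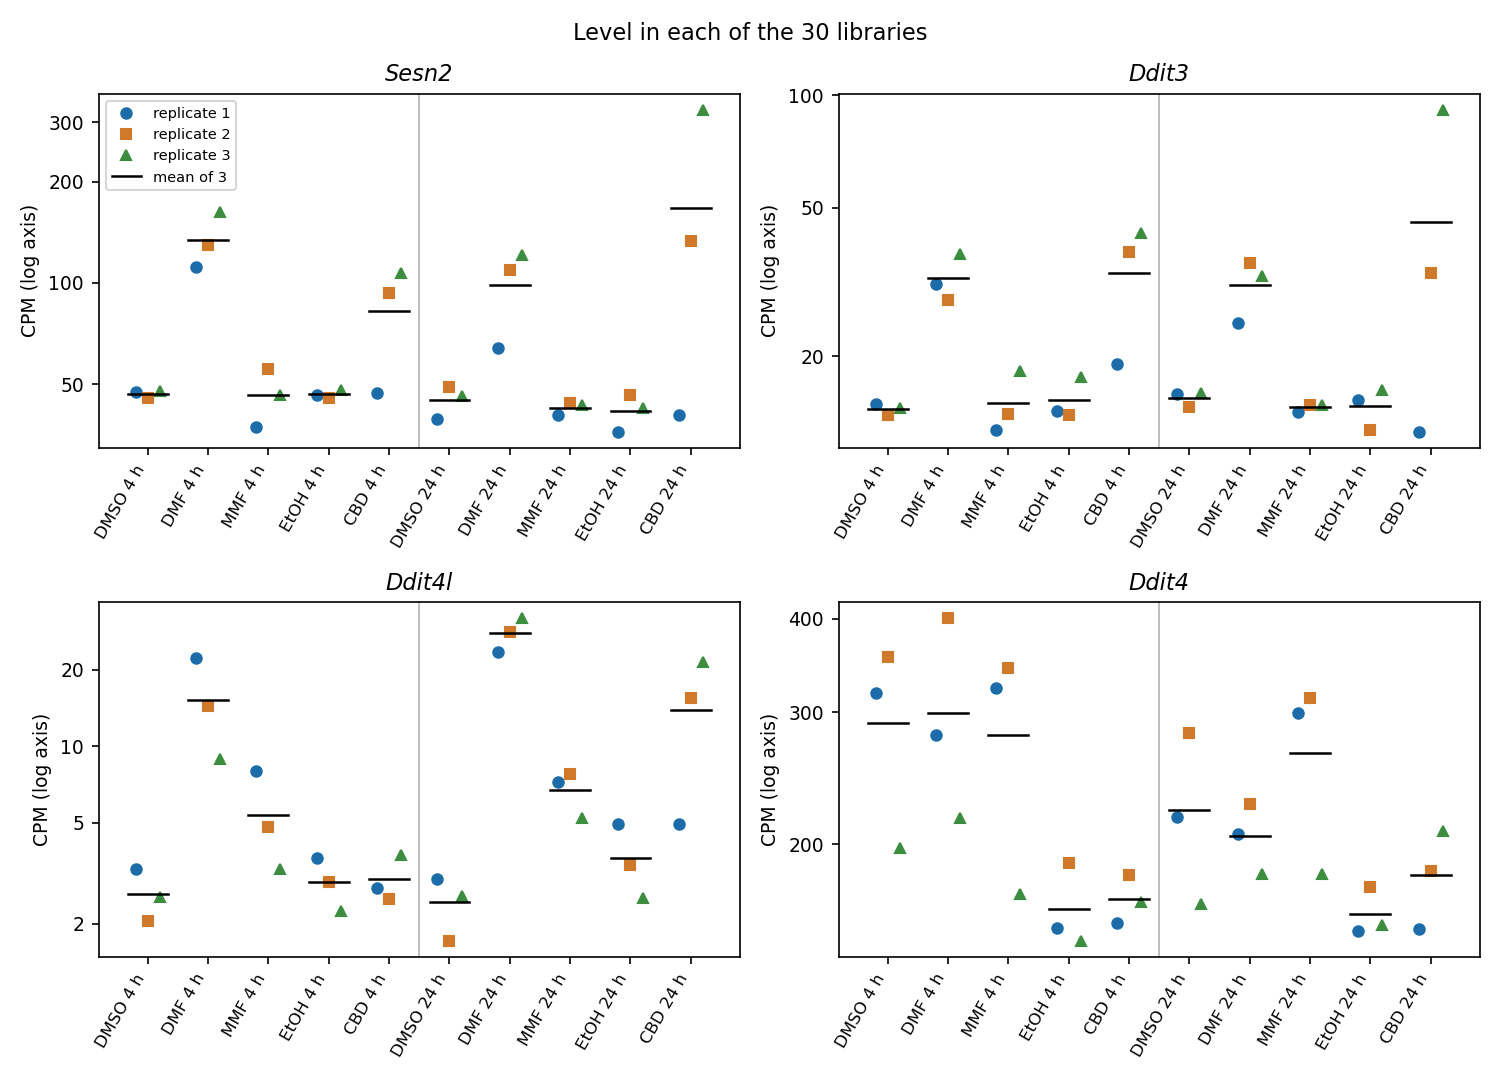
Level of *Sesn2*, *Ddit3*, *Ddit4l* and *Ddit4* in each of the 30 libraries, in CPM on log axes, by treatment group at 4 h (left of the grey line) and 24 h (right). Symbols mark replicates 1 to 3 and bars the mean of 3 libraries. *Sesn2* and *Ddit3* were high with DMF and in CBD replicates 2 and 3, and *Ddit4l* was also above DMSO with MMF. *Ddit4* followed the vehicle and, within the DMSO, DMF and MMF groups only, the replicate number.

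*Sesn2* (ENSRNOG00000042785) lies on chromosome 5 of the build mRatBN7.2, from 144701530 to 144721260. It encodes sestrin 2, which senses leucine and holds mTORC1 back through the GATOR2 complex. After 4 h, *Sesn2* had 2224, 2583 and 3269 normalised counts in the DMF libraries and 950.3, 904.9 and 960.3 in the DMSO libraries. After 24 h the values were 1186, 2026 and 2234 with DMF and 731, 902 and 849 with DMSO. Every DMF library was above every DMSO library at both times, with a log2FC of 1.50 (SE 0.13) at 4 h and of 1.09 (SE 0.21) at 24 h. On the scale of this fit, log2 of the normalised count plus 1, a log2FC of 1 is a doubling.

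With MMF, *Sesn2* had 679, 1009 and 853 normalised counts at 4 h against 868, 826 and 876 with DMSO in the same table. At 24 h it had 783, 848 and 836 against 769, 947 and 892. The groups overlapped at both times, and the log2FC was -0.03 (SE 0.14) and -0.08 (SE 0.08). With CBD, *Sesn2* had 922, 1830 and 2093 normalised counts at 4 h against 906, 887 and 944 with EtOH, and 764, 2515 and 6186 at 24 h against 681, 884 and 801. Replicate 1 stayed among the vehicle libraries and replicates 2 and 3 were far above them, so that the groups overlapped. In order of mean level, *Sesn2* had 167 ± 147 CPM (SD, n = 3) in CBD at 24 h, 134.5 ± 26.2 in DMF at 4 h, 98.3 ± 30.1 in DMF at 24 h and 82.4 ± 31.3 in CBD at 4 h. The remaining 6 groups lay between 41.6 ± 5.29 CPM (EtOH at 24 h) and 46.9 ± 1.31 CPM (DMSO at 4 h), and each group in the order overlapped the next.

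*Ddit3* (ENSRNOG00000006789; chromosome 7, 63116380 to 63121201) encodes CHOP, a transcription factor that promotes cell death under lasting stress of the endoplasmic reticulum. Its neighbour *Mars1* shares 60 bases with it in the annotation. At 4 h *Ddit3* had 626, 566 and 754 normalised counts with DMF and 297, 278 and 293 with DMSO, and at 24 h it had 453, 657 and 605 against 293, 268 and 293. The DMF and DMSO libraries did not overlap at either time, and the log2FC was 1.15 (SE 0.12) at 4 h and 0.99 (SE 0.14) at 24 h. With MMF, *Ddit3* had 231, 255 and 334 normalised counts at 4 h and 275, 287 and 285 at 24 h, while the DMSO libraries held 254 to 271 and 281 to 308, so that the groups overlapped. The log2FC with MMF was 0.03 (SE 0.15) and -0.08 (SE 0.08).

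With CBD, *Ddit3* had 373, 748 and 839 normalised counts at 4 h against 279, 272 and 345 with EtOH, so that all 3 libraries, replicate 1 narrowly, were above the vehicle. At 24 h it had 236, 633 and 1731 against 288, 240.2 and 308, and replicate 1 was the lowest of the 6 libraries. The mean level of *Ddit3* was 45.9 ± 41.0 CPM (SD, n = 3) in CBD at 24 h, 33.3 ± 12.6 in CBD at 4 h, 32.4 ± 4.71 in DMF at 4 h and 31.0 ± 5.73 in DMF at 24 h. It was 14.4 ± 0.453 (DMSO at 4 h) to 15.4 ± 0.739 (DMSO at 24 h) in the other 6 groups. DMF at 24 h did not overlap the next group in this order, DMSO at 24 h, while all other neighbours overlapped.

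*Ddit4l* (ENSRNOG00000010047; chromosome 2, 226128276 to 226131375) encodes REDD2, a relative of REDD1 that also restrains mTORC1. At 4 h it had 444, 286 and 178 normalised counts with DMF and 65.8, 40.9 and 51.3 with DMSO. At 24 h it had 432.5, 520.4 and 588 with DMF and 55.6, 31.6 and 47.2 with DMSO. The groups did not overlap, and *Ddit4l* had the largest log2FC of the 8 genes at both times, 2.43 (SE 0.32) at 4 h and 3.52 (SE 0.21) at 24 h. Per replicate number, the level with DMF was 3.43 to 6.85 times that with DMSO at 4 h and 7.66 to 16.0 times at 24 h.

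*Ddit4l* was also higher with MMF than with DMSO in all 3 replicate numbers at both times. It had 145, 87.1 and 60.05 normalised counts with MMF at 4 h against 60.15, 37.3 and 46.8, and 140, 151 and 100.4 at 24 h against 58.5, 33.2 and 49.6. The groups just overlapped at 4 h and did not overlap at 24 h, with a log2FC of 0.94 (SE 0.33) and 1.47 (SE 0.24). With CBD, *Ddit4l* had 54.2, 49.2 and 73.0 normalised counts at 4 h against 70.7, 57.1 and 43.9 with EtOH, and 92.8, 291 and 405 at 24 h against 93.7, 64.8 and 47.95. The 4 h groups were intermingled, and at 24 h replicates 2 and 3 were above every EtOH library while replicate 1 was not.

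In order of mean level, *Ddit4l* had 27.8 ± 4.24 CPM (SD, n = 3) in DMF at 24 h, 15.1 ± 6.70 in DMF at 4 h, 13.9 ± 8.35 in CBD at 24 h, 6.74 ± 1.36 in MMF at 24 h and 5.35 ± 2.41 in MMF at 4 h. The vehicles and CBD at 4 h followed, from 3.63 ± 1.23 (EtOH at 24 h) down to 2.43 ± 0.651 (DMSO at 24 h). DMF at 24 h was clear of DMF at 4 h, and every later pair of neighbours overlapped.

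*Atf4* (ENSRNOG00000017801; chromosome 7, 111804183 to 111806446), the transcription factor at the head of the set, differed little at the level of mRNA. With DMF it had 4294, 4158 and 4563 normalised counts at 4 h against 4007, 3341 and 3257 with DMSO, and 3044, 2958 and 4120.0 at 24 h against 2866, 2601 and 2665. The groups did not overlap, but the log2FC was only 0.30 (SE 0.09) at 4 h and 0.30 (SE 0.12) at 24 h. With MMF the log2FC was -0.11 (SE 0.10) and 0.01 (SE 0.06). With CBD, *Atf4* had 3206, 4632 and 5491 normalised counts at 4 h against 3295 to 3532 with EtOH, and 2595, 3592 and 6540.0 at 24 h against 2965 to 3353, so that replicate 1 was the lowest library at both times and replicates 2 and 3 the highest.

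*Cebpg* (ENSRNOG00000021144; chromosome 1, 87684019 to 87694569), which encodes a C/EBP protein that pairs with ATF4, was higher with DMF than with DMSO in all 3 replicate numbers at 24 h. It had 1093, 1134 and 1351 normalised counts there against 878, 878 and 1003, a log2FC of 0.37 (SE 0.10), and 0.10 (SE 0.09) at 4 h. In CBD at 24 h it had 937, 1284 and 2303 against 1020.0 to 1039 with EtOH. With MMF the log2FC was 0.06 (SE 0.09) at 4 h and 0.07 (SE 0.07) at 24 h. *Atf5* (ENSRNOG00000020060; chromosome 1, 95295610 to 95299707), a further ATF4 relative, lies wholly within the annotated spans of *Nup62* and *Il4i1*, and how reads shared by several genes were counted is not given in the sources used here, so its low count is uncertain.

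*Trib3* (ENSRNOG00000007319; chromosome 3, 140809043 to 140814497) encodes a pseudokinase that is a target of ATF4 and CHOP and feeds back on ATF4. It had 6 to 1473 reads per library, with a median of 19. It had 41.8, 18.8 and 39.9 normalised counts with DMF at 4 h against 30.5, 8.18 and 19.4 with DMSO, which overlapped. At 24 h it had 37.9, 104 and 238 with DMF against 9.81, 12.8 and 14.9. The 24 h groups were apart, with a log2FC of 2.90 (SE 0.55) and folds per replicate number of 3.60, 7.63 and 15.03. With CBD, *Trib3* had 5.34, 78.1 and 107 normalised counts at 4 h against 6.90 to 16.8 with EtOH, and 10.3, 385 and 1274 at 24 h against 11.03 to 23.5. Replicate 1 was the lowest library at both times, and the value of replicate 3 at 24 h was 73.8 times that of its vehicle, the widest ratio of any tested member in any drug library.

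*Chac1* (ENSRNOG00000014387; chromosome 3, 106342302 to 106345526) encodes an enzyme that degrades glutathione. It had 537, 505 and 910 normalised counts with DMF at 4 h against 399.8, 223 and 283 with DMSO, and 404, 579 and 571 at 24 h against 214, 192 and 206. The groups did not overlap, and the log2FC was 1.09 (SE 0.26) at 4 h and 1.32 (SE 0.14) at 24 h. With MMF the log2FC was -0.13 (SE 0.23) and 0.09 (SE 0.10). With CBD it had 211, 905 and 1119 normalised counts at 4 h against 218 to 253 with EtOH, and 163, 545 and 1749 at 24 h against 201 to 249.7, and again replicate 1 was the lowest library.

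*Ddit4* (ENSRNOG00000057078; chromosome 20, 27891998 to 27894105), which encodes REDD1, did not share the pattern of its relative *Ddit4l*. It had 5597, 8010.0 and 4347 normalised counts with DMF at 4 h against 6367, 7100.0 and 3971 with DMSO, and 3809, 4185 and 3368 at 24 h against 4033, 5174 and 3068. The groups were intermingled, and the log2FC was 0.04 (SE 0.26) and -0.08 (SE 0.17). With CBD it was 0.05 (SE 0.10) at 4 h and 0.16 (SE 0.12) at 24 h, and with MMF -0.08 (SE 0.29) and 0.24 (SE 0.23).

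**Figure D2:**
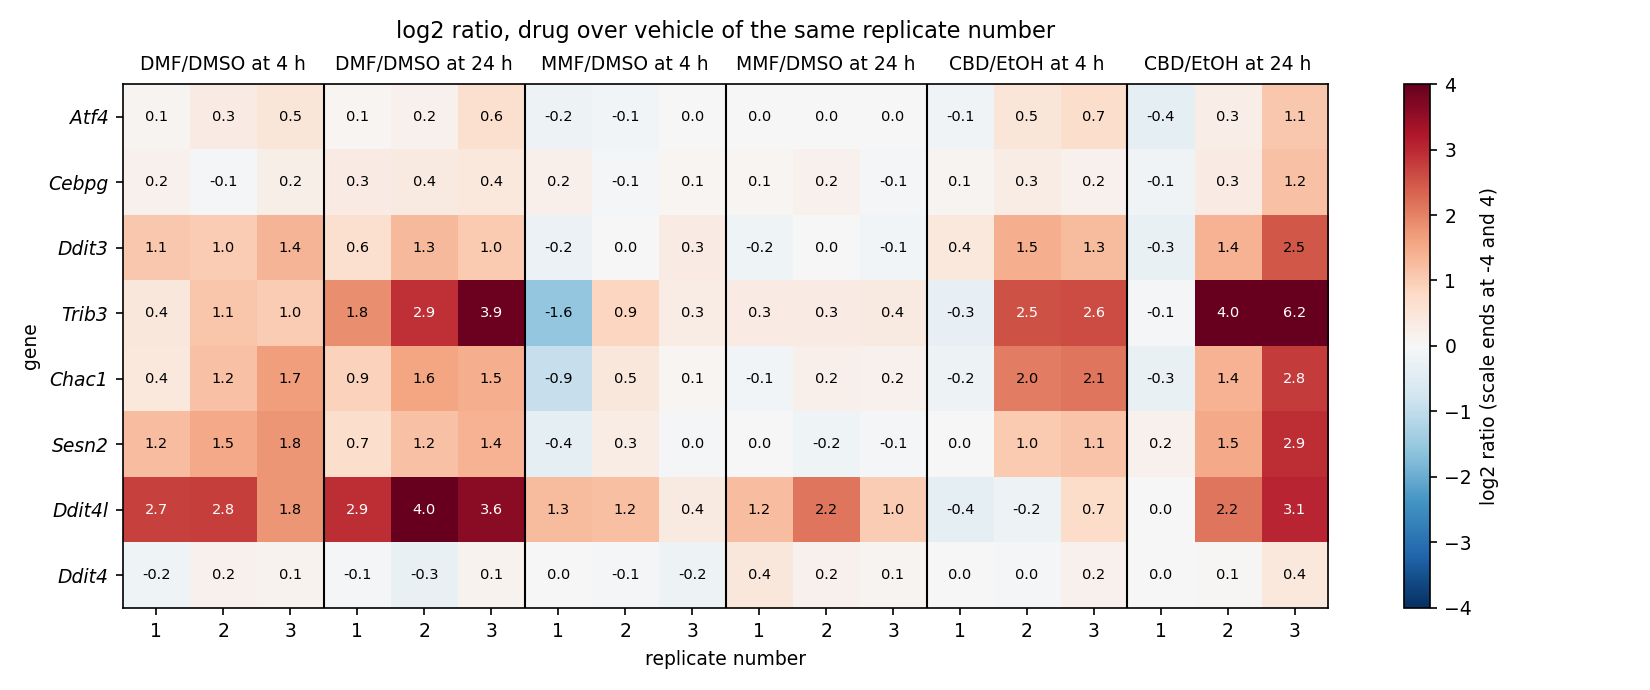
Log2 ratio of normalised counts (plus 1), drug over the vehicle of the same replicate number, for the 8 tested genes (lines) in the 6 comparisons (blocks of 3 columns, replicates 1 to 3). Red is higher with the drug and blue lower, and the colour scale ends at -4 and 4 while the printed numbers do not. Under DMF, *Atf4*, *Ddit3*, *Trib3*, *Chac1*, *Sesn2* and *Ddit4l* were above 0 in every column. Under MMF the ratios above 1 were all of *Ddit4l*, and under CBD replicate 1 had none above 1.

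Counted over the set, 3 of the 8 tested genes passed an adjusted p of 0.05 in limma for DMF against DMSO at 4 h (*Ddit3*, *Sesn2* and *Ddit4l*), where 3.41% of all genes tested did, and 6 in a fit blocked on the replicate number, where 23% did. At 24 h, 5 passed (with *Trib3* and *Chac1*), against 3.97% of all genes, and 6 with the block, against 12.9%. The DMF and DMSO libraries did not overlap for 5 genes at 4 h and 7 at 24 h, where 26.3% and 22.8% of all genes did not. For MMF against DMSO, 0 passed in limma at both times, where 0% and 0.00707% of all genes passed, with 1 gene at an unadjusted p under 0.05 at each time. DESeq2 called 0 and 1, edgeR 0 and 0, and the block 0 and 2 (*Ddit4* and *Ddit4l*, against 1.38% of all genes at 24 h). Libraries did not overlap for 0 and 1 gene, against 2.76% and 9.73% of all.

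For CBD against EtOH, 0 passed in limma at both times, where 0.00705% and 0.114% of all genes passed, and 3 had an unadjusted p under 0.05 at each time. DESeq2 called 1 at 4 h and 2 at 24 h, and edgeR 0 at both. With the block, 4 were called at 4 h (*Ddit3*, *Trib3*, *Chac1* and *Sesn2*), against 2.33% of all genes, and 0 at 24 h, against 0.504%. The libraries did not overlap for 1 gene at 4 h (*Ddit3*), where 9.95% of all did not, and for 0 at 24 h, where 15.9% did not. Leaving out DMF or DMSO replicate 2 took *Ddit4l* from the DMF calls at 4 h, which left 2, and leaving out DMF replicate 2 or any 1 DMSO library took *Trib3* and *Sesn2* from those at 24 h, which left 3. These comparisons chose the set, so nothing is read from the counts. DMF and MMF were compared with the same DMSO libraries.

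**Figure D3:**
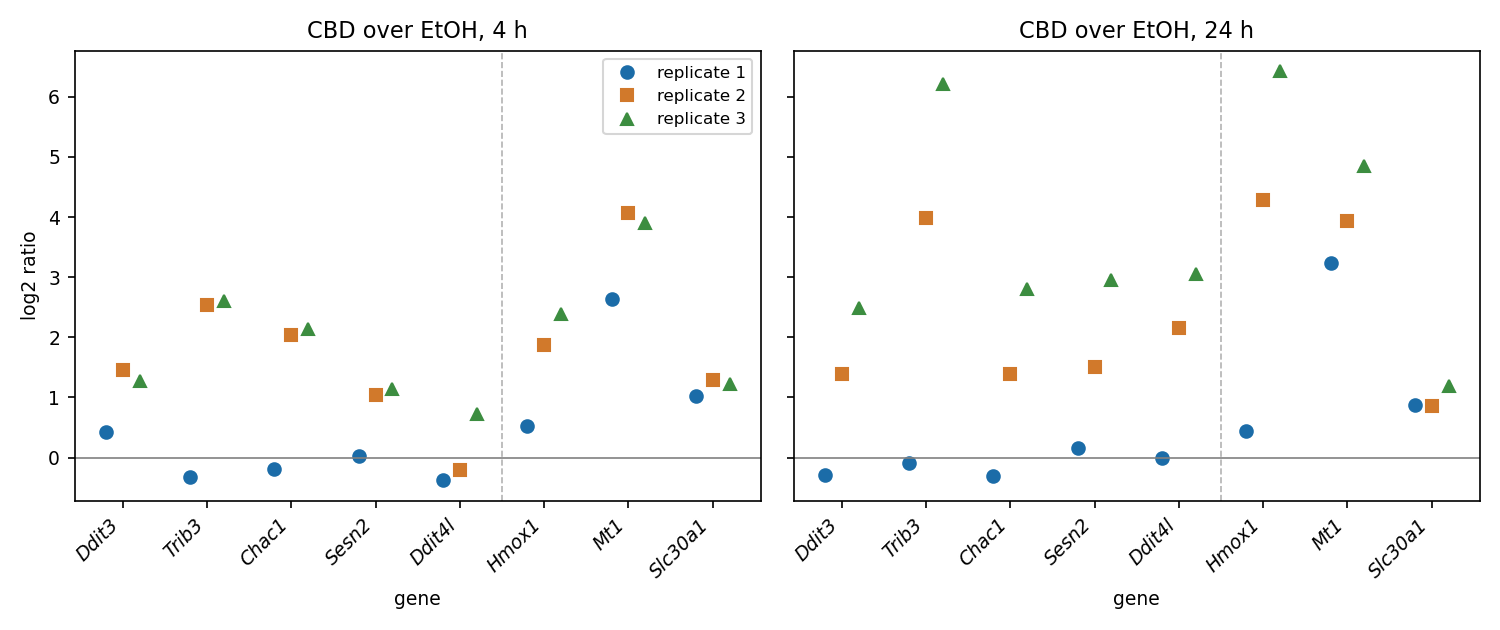
Log2 ratio of normalised counts (plus 1), CBD over EtOH of the same replicate number, at 4 h (left) and 24 h (right), for 5 of the stress genes and, right of the dashed line, *Hmox1*, *Mt1* and *Slc30a1*. Replicate 1 lay near 0 for the stress genes at both times, its highest being *Ddit3* at 4 h with 0.42. Its *Mt1* and *Slc30a1* ratios were above 0 like those of replicates 2 and 3. For *Mt1*, replicate 1 was the lowest of the 3 at both times.

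The CBD libraries of replicate 1 stood apart from the other two. Over the 8 tested genes, the log2 ratios of CBD to EtOH in replicate 1 lay between -0.38 and 0.42 (median -0.06) at 4 h and between -0.37 and 0.17 (median -0.12) at 24 h. In replicate 2 the highest ratio was 2.53 at 4 h and 3.98 at 24 h, both of *Trib3*, and in replicate 3 the median was 0.93 and 2.65. At 24 h, 0 genes of replicate 1, 5 of replicate 2 and 7 of replicate 3 had a ratio above 1. Replicate 1 was singled out on these same ratios. The larger log2FC and mostly smaller SE without it follow from that choice and are no support. Without the CBD library of replicate 1, the log2FC at 24 h was 2.33 (SE 0.32) for *Sesn2*, 5.35 (SE 0.50) for *Trib3* and 2.36 (SE 0.29) for *Ddit4l*, and at 4 h it was 1.10 (SE 0.08) for *Sesn2*, 1.41 (SE 0.13) for *Ddit3* and 2.08 (SE 0.13) for *Chac1*. Likewise at 24 h it was 1.92 (SE 0.36) for *Ddit3*, 2.16 (SE 0.41) for *Chac1*, 0.74 (SE 0.21) for *Cebpg*, 0.63 (SE 0.22) for *Atf4* and 0.28 (SE 0.11) for *Ddit4*. At 4 h it was 2.90 (SE 0.41) for *Trib3*, 0.57 (SE 0.09) for *Atf4*, 0.30 (SE 0.12) for *Cebpg*, 0.10 (SE 0.11) for *Ddit4* and 0.09 (SE 0.29) for *Ddit4l*. Without both libraries of replicate 1, it was 2.23 (SE 0.39), 5.09 (SE 0.55) and 2.60 (SE 0.26) at 24 h for the same 3 genes, *Sesn2*, *Trib3* and *Ddit4l*. With all 3 libraries, it was 1.54 (SE 0.62), 3.37 (SE 1.45) and 1.73 (SE 0.50). All 3 libraries gave 1.30 (SE 0.70) for *Chac1*, 0.45 (SE 0.27) for *Cebpg* and 0.33 (SE 0.28) for *Atf4* at 24 h. *Ddit3* was 2.30 times its vehicle there in the fit (SE 0.59 on the log2 scale). At 4 h they gave 0.74 (SE 0.27) for *Sesn2*, 1.05 (SE 0.28) for *Ddit3* and 1.33 (SE 0.55) for *Chac1*. The log2FC was 1.61 (SE 0.99) for *Trib3*, 0.35 (SE 0.17) for *Atf4*, 0.19 (SE 0.13) for *Cebpg* and 0.04 (SE 0.24) for *Ddit4l*.

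*Mt1*, a metallothionein that binds zinc, *Slc30a1*, a zinc exporter, and *Hmox1*, heme oxygenase 1, were chosen after their values were seen, to show which other transcripts replicate 1 shared with the rest. In replicate 1, *Mt1* was 6.21 times its vehicle at 4 h and 9.42 times at 24 h, and *Slc30a1* was 2.03 and 1.83 times. In replicates 2 and 3, *Mt1* was 16.8 and 14.95 times its vehicle at 4 h and 15.4 and 28.7 times at 24 h. *Slc30a1* was 2.44 and 2.33 times there at 4 h and 1.81 and 2.29 times at 24 h. The *Mt1* rise was thus smaller in replicate 1 too. *Hmox1* had 434, 1017 and 874.5 normalised counts with CBD at 4 h against 167 to 303 with EtOH. At 24 h it had 446, 5355 and 17650.0 against 204.5 to 328. Its replicate 1 was thus above every EtOH library but below CBD replicates 2 and 3 at both times. At 24 h, the neuronal markers summed to 3868, 3645 and 3645 CPM in CBD replicates 1 to 3 against 3906, 4042 and 4631 in EtOH, and the astrocyte markers to 4236, 3693 and 1899 against 4025, 4001 and 2429.

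Upstream of several of these genes lie short motifs bound by known factors, and the promoters of the tested members that held one are shown. With DMF these genes were above every DMSO library, *Trib3* at 24 h only. With CBD they were above every EtOH library in replicates 2 and 3 but not in replicate 1 at both times. The windows are from RefSeq on the build GRCr8, which is not the build of the count tables, and cover the 250 bases before the annotated gene start, 5′ to 3′ on the strand of the gene. Capitals mark the C/EBP-ATF response element, searched as TGATGNAA on both strands (*Chac1* and *Trib3*, each on the opposite strand), and the core of the antioxidant response element that Nrf2 binds, searched as TGACNNNGC (*Sesn2*).
*Chac1*, chr3:126795881-126796130, plus strand: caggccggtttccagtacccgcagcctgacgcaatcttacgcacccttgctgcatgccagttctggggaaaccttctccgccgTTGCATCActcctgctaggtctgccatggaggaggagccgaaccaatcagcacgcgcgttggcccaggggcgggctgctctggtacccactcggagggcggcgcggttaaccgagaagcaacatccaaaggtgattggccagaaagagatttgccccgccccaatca
*Trib3*, chr3:161275534-161275783, minus strand: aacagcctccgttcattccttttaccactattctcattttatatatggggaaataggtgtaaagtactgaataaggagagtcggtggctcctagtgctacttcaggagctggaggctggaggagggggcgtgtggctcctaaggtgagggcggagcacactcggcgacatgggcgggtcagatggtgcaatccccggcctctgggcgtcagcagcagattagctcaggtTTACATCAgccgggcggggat
*Sesn2*, chr5:150005256-150005505, minus strand: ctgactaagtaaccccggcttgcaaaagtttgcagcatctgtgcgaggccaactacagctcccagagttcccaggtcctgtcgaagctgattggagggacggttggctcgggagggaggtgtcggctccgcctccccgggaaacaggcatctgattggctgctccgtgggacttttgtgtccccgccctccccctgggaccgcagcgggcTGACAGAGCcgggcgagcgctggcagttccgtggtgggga

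All 10 genes had a window of 300 bases in the RefSeq table, 250 before the start and 50 after it. The C/EBP-ATF motif was in 2 of them, with its first base 167 bases before the start of *Chac1* and 21 before that of *Trib3*, and in 3.98% of 33469 such windows. The antioxidant motif was in 3, 40 bases before the start in *Sesn2*, 51 before it in *Ppp1r15a* and 14 after it in *Atf5*, and in 12.1% of all windows. The last 2 genes were not tested, and their windows are not shown. The endoplasmic reticulum stress element (ERSE), searched as its usual bipartite consensus, was in 0 of the 10 and in 0.0657% of all. *Atf4*, *Cebpg*, *Ddit3*, *Ddit4* and *Ddit4l* held none of these motifs. With DMF, *Atf4*, *Ddit3* and *Ddit4l* were also above every DMSO library at both times, *Cebpg* at 24 h only and *Ddit4* at neither. A match is a description of the letters and not a shown binding site. Whether the motifs bear on the drug differences was not tested.

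DMF and MMF, which differ by a methyl ester and were given at the same dose and times, could be compared directly. At 4 h, *Sesn2* was higher with DMF than with MMF by 1.53 on the log2 scale (SE 0.17, limma, adjusted p = 0.0133), *Ddit3* by 1.12 (SE 0.16, limma, adjusted p = 0.0280) and *Atf4* by 0.41 (SE 0.08, limma, adjusted p = 0.0473), and the libraries of the groups did not overlap. *Chac1*, at 1.22 (SE 0.24, limma, adjusted p = 0.0508), and *Ddit4l*, at 1.49 (SE 0.39, limma, adjusted p = 0.0986), also had no overlap but missed the threshold, which both passed in the fit with the block (adjusted p = 2.12e-06 and 1.63e-07). *Trib3* passed only with the block (0.98, blocked SE 0.33, adjusted p = 0.0385, against an SE of 0.43 and an adjusted p of 0.285 in limma without it). In all, 3 of 8 genes passed, where 1.61% of all genes did, and 6 with the block, where 23.6% did.

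At 24 h, 5 of 8 genes were higher with DMF than with MMF past the threshold, where 3.56% of all genes passed it. In limma, *Ddit4l* was higher by 2.05 (SE 0.18; adjusted p = 0.000626), *Chac1* by 1.23 (SE 0.15; adjusted p = 0.00350) and *Ddit3* by 1.07 (SE 0.14; adjusted p = 0.00448) on the log2 scale. For *Sesn2* it was 1.16 (SE 0.20, limma, adjusted p = 0.0190) and for *Trib3* 2.55 (SE 0.56, limma, adjusted p = 0.0445). With the block 7 passed, where 12.2% of all genes did, *Cebpg* being higher with DMF (0.30, adjusted p = 0.0289) and *Ddit4* lower (-0.33, adjusted p = 0.0432). *Ddit4l* thus was higher with DMF than with MMF although MMF itself was above DMSO, by 2.76 times at 24 h in the fit. Leaving out 1 library in turn (limma, adjusted p up to 0.192 at 24 h), the call of *Trib3* was lost without DMF replicate 2 or any MMF library, and that of *Sesn2* without DMF replicate 2 or MMF replicate 1 or 2. At 4 h (adjusted p up to 0.165), *Atf4* lost its call in all 6 cases, *Ddit3* in all but that of MMF replicate 3, and *Sesn2* without DMF or MMF replicate 2.

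Between 4 h and 24 h of DMF, 0 of the 8 genes changed past the threshold in limma, where 15.5% of all genes did, while 3 had an unadjusted p under 0.05, DESeq2 called 2 and edgeR 1. *Ddit4l* came nearest, higher at 24 h by 0.96 on the log2 scale (SE 0.29, limma, adjusted p = 0.0531), with no overlap between times. With the block 5 passed, where 32.3% of all genes did: *Trib3* (1.72, adjusted p = 0.0115) and *Ddit4l* (adjusted p = 0.0116) were higher at 24 h, and *Sesn2* (-0.49, adjusted p = 0.00273), *Ddit4* (-0.50, adjusted p = 0.00251) and *Atf4* (-0.26, adjusted p = 0.0233) lower. Within the other treatments, 0 of the 8 passed in limma between the times, and 0% of all genes did in each of MMF, CBD, DMSO and EtOH. At an unadjusted p under 0.05 stood 1 gene each in MMF, CBD and DMSO and 0 in EtOH. edgeR called 0 in each, and DESeq2 called 1, *Ddit4l* in CBD, which was higher at 24 h by 1.97 on the log2 scale (SE 0.50, limma, adjusted p = 0.580) and whose libraries did not overlap between times. Without CBD replicate 1 at 4 h this difference was 1.92 (SE 0.59), and without that at 24 h it was 2.59 (SE 0.24). With the block, *Ddit4* was lower at 24 h in DMSO (-0.38, blocked SE 0.07, adjusted p = 0.0222, against an SE of 0.23 and an adjusted p of 0.607 in limma without it), where 1.47% of all genes passed.

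The change of a drug's effect between the times was tested as an interaction over 12 libraries. For DMF, 0 of the 8 genes passed in limma, where 4.12% of all genes did, and 2 had an unadjusted p under 0.05, *Trib3* with 2.05 (SE 0.83) and *Ddit4l* with 1.09 (SE 0.43) on the log2 scale. For MMF and CBD, 0 passed in limma, where 0% of all genes did in each, and 0 and 1 had an unadjusted p under 0.05, the latter *Ddit4l* with 1.69 (SE 0.63), which was 1.64 (SE 0.70) without CBD replicate 1 at 4 h and 2.31 (SE 0.41) without that at 24 h. edgeR called 0 in each of the 3 interactions, and DESeq2 was not run on them. The 95% interval of the DMF interaction ran from -1.02 to 0.18 for *Sesn2* and from -0.58 to 0.25 for *Ddit3*.

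The vehicles themselves differed for *Ddit4*. At 4 h it had 6052, 6742 and 3752 normalised counts with DMSO against 2921, 3569 and 2829 with EtOH, and at 24 h 4033, 5180.0 and 3069 against 2815, 3252 and 2854. DMSO was above EtOH in every replicate number, without overlap at 4 h, and the log2FC was 0.79 (SE 0.20, limma, adjusted p = 1) and 0.43 (SE 0.16, limma, adjusted p = 0.973). In the blocked fit *Ddit4* passed at both times (adjusted p = 0.000639 and 0.0245), where 0.39% and 0.486% of all genes did. In limma without it, 0 of the 8 genes and 0% of all passed at each time, 1 and 2 of the 8 had an unadjusted p under 0.05, DESeq2 called 1 (*Ddit4*) and 0, and edgeR 0 and 0. The *Ddit4* level also followed the replicate number within DMSO, DMF and MMF at 4 h, where replicate 3 was the lowest and replicate 2 the highest. The hypoxia-responsive genes, a list that bears on *Ddit4* as it is one too, also lay higher in DMSO than in EtOH, with a median of 1.04 and 8 of 9 above 0 at 4 h, and of 0.38 and 9 of 9 at 24 h. In limma 0 passed, 5 and 4 had an unadjusted p under 0.05, and 3 were higher at each time with the block. With MMF at 24 h their median was 0.40, 9 of 9 were above 0, 0 passed in limma (0 at an unadjusted p under 0.05) and 4 were higher with the block. Their part in the *Ddit4* values was not tested. For *Sesn2* the difference between the vehicles was 0.01 (SE 0.07) at 4 h and 0.11 (SE 0.11) at 24 h, and for *Ddit3* -0.07 (SE 0.12) and 0.08 (SE 0.12).

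Over the 30 libraries, after the mean of each replicate number was subtracted, the log2 CPM of *Ddit3* had a Pearson r of 0.95 with *Sesn2*, 0.95 with *Chac1*, 0.85 with *Trib3* and 0.84 with *Atf4*, but 0.66 with *Ddit4l* and 0.03 with *Ddit4*. These are descriptions, since the libraries share treatments and experiments. Among 14657 other genes, the patterns most like that of *Sesn2* were those of *Slc7a1* (r = 0.935), *Hmox1* (0.935) and *Akna* (0.933), and those most like that of *Ddit3* were *Slc7a1* (0.921), *Akna* (0.906) and *Stk40* (0.893). For *Ddit4l* they included *Osgin1* (0.945) and *Aox1* (0.914), neither of which was among the 3 of *Sesn2* or of *Ddit3*.

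**Figure D4:**
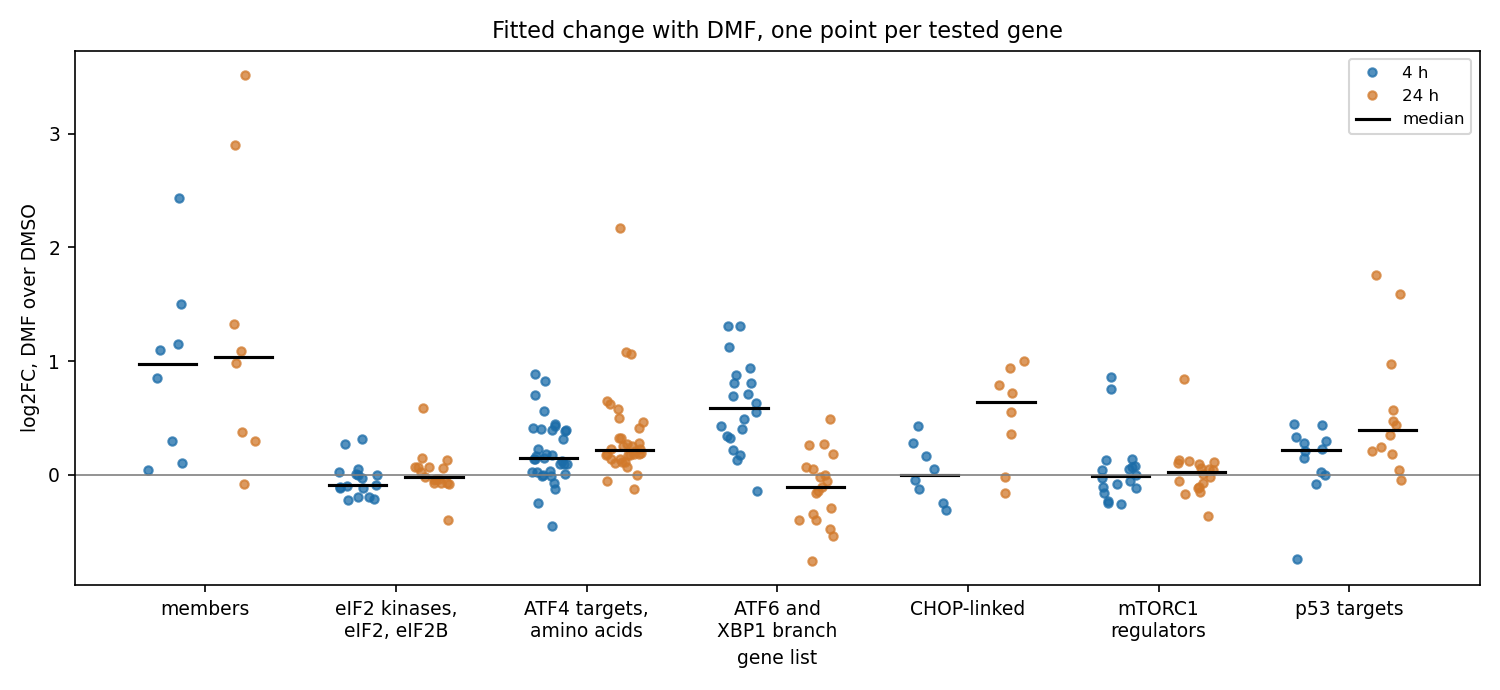
Fitted log2FC of DMF against DMSO at 4 h (blue) and 24 h (orange) for the 8 tested members and for 6 lists of related genes, with a point per gene and a bar at the median. The list of the ATF6 and XBP1 branch had a median of 0.59 at 4 h and -0.11 at 24 h, while the medians of the members were 0.97 and 1.04.

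Other genes of the pathway were taken from lists drawn up with earlier results of these data known, so their counts are descriptions beside the share of all genes called, 3.41% for DMF at 4 h and 3.97% at 24 h. The median log2FC of all genes was 0.00 and -0.01. Of 17 genes for the eIF2 kinases, eIF2 and its exchange factor eIF2B, 0 passed at 4 h in limma, 4 had an unadjusted p under 0.05, and 2 were higher and 2 lower with the block. At 24 h *Eif2ak3*, which encodes the kinase PERK of the endoplasmic reticulum, rose by 0.59 (SE 0.12, limma, adjusted p = 0.0320). Of 34 genes of amino acid supply that ATF4 activates, 3 rose with DMF at 4 h: *Mthfd2*, of mitochondrial folate metabolism (0.89, SE 0.15, adjusted p = 0.0246), *Psph*, of serine synthesis (0.56, SE 0.11, adjusted p = 0.0339), and *Slc7a1*, an arginine and lysine transporter (0.82, SE 0.17, adjusted p = 0.0457). At 24 h 4 rose, among them the cystine transporter *Slc7a11* (2.17, SE 0.35, adjusted p = 0.0122) and its partner *Slc3a2* (0.62, SE 0.12, adjusted p = 0.0227). With the block, 16 were higher and 1 lower at 4 h, and 11 higher at 24 h, where 23% and 12.9% of all genes passed. The median of this list was 0.14 at 4 h and 0.22 at 24 h.

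The genes of the ATF6 and XBP1 branch of the unfolded protein response are mostly chaperones and folding enzymes of the endoplasmic reticulum. With DMF at 4 h, 13 of 20 rose, led by *Creld2* (1.12, SE 0.09, adjusted p = 0.00470), *Hspa5* (0.88, SE 0.08, adjusted p = 0.00470) and *Hsp90b1* (0.81, SE 0.08, adjusted p = 0.00470). At 24 h, 3 of 19 were lower, *Calr* (-0.54, SE 0.09, adjusted p = 0.0124), *Hsp90b1* (-0.48, SE 0.10, adjusted p = 0.0320) and *Pdia6* (-0.35, SE 0.08, adjusted p = 0.0449). The interaction passed for 10 of 20 genes, all with a lower log2FC at 24 h than at 4 h, by -1.29 (SE 0.13, limma, adjusted p = 0.000455) for *Hsp90b1* and by -1.09 (SE 0.11, limma, adjusted p = 0.000511) for *Calr*. With the block, 17 were higher at 4 h, 1 was higher and 6 were lower at 24 h, and the interaction passed for 14. For *Sesn2*, *Ddit3* and *Ddit4l*, as given above, the same interaction did not pass.

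Of the genes linked to CHOP, 0 of 8 passed with DMF at 4 h in limma and 0 had an unadjusted p under 0.05, while 1 was higher and 1 lower with the block. At 24 h 3 rose, *Pmaip1* (1.00, SE 0.21, adjusted p = 0.0358), *Tnfrsf10b* (0.94, SE 0.20, adjusted p = 0.0359) and *Bcl2l11* (0.79, SE 0.17, adjusted p = 0.0368), all of which promote cell death, and 5 were higher with the block. Of 12 targets of p53, which also activates *Sesn2*, 0 passed at 4 h in limma (5 at an unadjusted p under 0.05, and 5 higher and 1 lower with the block) and 7 rose at 24 h, led by the cell cycle inhibitor *Cdkn1a* (1.76, SE 0.15, adjusted p = 0.000638), *Eda2r* (1.59, SE 0.21, adjusted p = 0.00436) and *Ccng1* (0.47, SE 0.09, adjusted p = 0.0287). Of 18 genes of mTORC1 and its regulators, 1 rose at 4 h, *Castor2* (0.75, SE 0.14, adjusted p = 0.0339), an arginine sensor relative, and 1 at 24 h, the mTOR inhibitor *Deptor* (0.84, SE 0.16, adjusted p = 0.0232). With the block, 1 was higher and 3 were lower at 4 h, and 1 was higher at 24 h. The median of this list was -0.02 and 0.02.

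Among relatives of the members, *Sesn1* rose at 4 h by 0.41 (SE 0.08, limma, adjusted p = 0.0377), and *Trib1* and *Atf3* rose at 24 h by 1.30 (SE 0.16, limma, adjusted p = 0.00390) and 2.25 (SE 0.40, limma, adjusted p = 0.0197), which made 1 and 2 of 9 tested. With the block, 4 were higher and 1 lower at 4 h, and 3 higher at 24 h. Of other ATF4 targets, 6 were tested at 4 h and 5 at 24 h. In limma 0 passed at 4 h, and *Stc2* rose at 24 h by 1.17 (SE 0.19, limma, adjusted p = 0.0127). With the block 3 were higher at each time. Of 6 glucocorticoid-responsive genes, which bear on *Ddit4* as it is one itself, *Fkbp5* rose at 4 h by 0.62 (SE 0.08, limma, adjusted p = 0.0107), and the medians were -0.05 and 0.04. The medians of 9 hypoxia-responsive genes were 0.08 and -0.01. Markers of the oligodendrocyte lineage fell with DMF at 24 h, with 3 of 6 lower, *Cspg4* (-1.13, SE 0.08, adjusted p = 0.000574), *Pdgfra* (-1.56, SE 0.16, adjusted p = 0.00137) and *Sox10* (-1.36, SE 0.17, adjusted p = 0.00331). *Tubb3* was lower at 4 h (-0.64, SE 0.11, limma, adjusted p = 0.0251), but 4 of 8 neuronal markers were above 0, with a median of -0.01. The astrocyte marker *Aldh1l1* was lower at 24 h (-0.65, SE 0.14, limma, adjusted p = 0.0403), but 3 of 6 astrocyte markers were above 0, with a median of -0.10. The part of these cells in the stress gene differences was not tested.

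With CBD, the ATF6 and XBP1 list had a median log2FC of 0.45 at 4 h and 0.37 at 24 h, with 19 of 19 genes above 0 at each time. In limma 0 passed at both times, 15 and 8 had an unadjusted p under 0.05, and in the blocked fit 14 passed at 4 h and 0 at 24 h, where 2.33% and 0.504% of all genes did. Without the CBD library of replicate 1, the median of this list was 0.66 and 0.48. The list of amino acid supply had a median of 0.22 and 0.45, with 33 of 34 above 0 at each time. In limma 0 of them passed at both times, 5 and 10 had an unadjusted p under 0.05, and 13 and 0 passed with the block. Without CBD replicate 1 the median was 0.36 and 0.82. The CHOP-linked genes had medians of 0.06 and 0.43 and the p53 targets of -0.02 and 0.05, and without CBD replicate 1 of 0.09 and 0.73 and of -0.03 and 0.19. Of 8 neuronal markers, 0 were above 0 at 24 h, with a median of -0.23, and *Gad2* (-0.84, SE 0.08, limma, adjusted p = 0.0104) and *Gad1* (-0.81, SE 0.08, limma, adjusted p = 0.0134), which encode the enzymes that make GABA, were lower. The part of these cells in the CBD differences was not tested. With MMF at 4 h these 4 lists had medians of 0.01, -0.02, -0.05 and -0.07, and at 24 h of 0.03, 0.01, 0.06 and -0.04.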

How the data were processed

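Poly(A) RNA of 30 libraries, 3 in each of 10 groups, was sequenced. The authors aligned reads with HISAT2 2.2.1 to mRatBN7.2, counted them per gene with HTSeq 2.0.3 and deposited 1 table per pair of groups. The signal values the authors deposited are counts divided by the DESeq2 1.40.2 size factors of that pair. Every value gave whole reads (100% within 0.001 reads), the same in all tables. The deposited fold changes, p-values and test statistics were not used, nor were 4 tables.

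The normalised counts were tested as log2(value + 1) with limma 3.58.1 (moderated variance with a mean trend) in R 4.3.3, for genes kept by filterByExpr of edgeR 4.0.16, in 15 pairs of groups and 3 interactions, with Benjamini-Hochberg adjustment over 13967 to 14503 genes and a threshold of 0.05. The p-values measure the spread between libraries. CPM levels used TMM scaling over the 30 libraries. The deviations of same-numbered libraries correlated above 0 in every pair (0.129 to 0.668, at most 0.185 for unlike numbers). For MMF against DMSO at 4 h the lowest same-number value, 0.129, was under the highest of unlike numbers, 0.134. For DMSO between the times these values were 0.162 and 0.185. The numbers were taken to pair the samples, and the block is printed beside the counts it changed.

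The members and lists were chosen with earlier results of these data known. All members were named, with up to 3 called genes per list and direction by smallest p, and the 3 genes most correlated with *Sesn2*, *Ddit3* and *Ddit4l*. Of the last, 1 gene is not reported here. The alternatives were edgeR's quasi-likelihood test on the recovered reads, no filter, a pseudocount of 0.1, the block and each library left out. DESeq2 1.42.0 and TMM scaling were further alternatives for the pairs of groups only. Leaving out both libraries of a replicate number was chosen after seeing the data. Fits were tested on simulated data. Promoters are from RefSeq on GRCr8.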

Additional observations from a re-analysis of the deposited data

How the results depend on the processing

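In the fit with a replicate block, the number of the 8 tested genes called was 6 for DMF against DMSO at 4 h (3 without the block), 2 for MMF at 24 h (0), 4 for CBD at 4 h (0), 6 for DMF against MMF at 4 h (3), 1 for DMSO against EtOH at 4 h and 1 at 24 h (0 and 0), 5 for DMF and 1 for DMSO at 24 h against 4 h (0 and 0). In the other comparisons the count with the block was within 1.5 times that without it. DESeq2 called 1 for MMF at 24 h, 1 and 2 for CBD at 4 h and 24 h, 5 for DMF against MMF at 4 h, 1 for DMSO against EtOH at 4 h, and, between the times, 2 for DMF and 1 for CBD. For DMF between the times, edgeR called 1 and the fit without the filter 1.

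With libraries left out, the count was 0 to 3 for DMF against DMSO at 4 h and 1 to 5 at 24 h (0 without both libraries of replicate 1 or of replicate 2 at 4 h, and 1 without both of replicate 2 at 24 h). It was 0 to 3 for CBD at each time (3 without CBD replicate 1), 0 to 2 and 3 to 5 for DMF against MMF at 4 h and 24 h, 0 to 1 for DMSO against EtOH at 4 h (1 without DMSO replicate 3) and 0 to 1 for DMF between the times. No called difference reversed under these alternatives. The cause of these changes was not tested. With 3 libraries a group, and 2 when a number is left out, few degrees of freedom limit every call, and *Trib3* and *Ddit4l* rest on few reads in the vehicle libraries.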
